A study of Mus musculus with 38 samples.

Results

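The de novo lipogenesis genes are the genes through which a cell makes fatty acids from citrate and acetyl-CoA, together with the factors that switch them on. The 9 genes followed here were Acly, Acaca, Fasn, Elovl6, Scd1, Me1, Thrsp, Srebf1 and Mlxipl. They were chosen by name, as the non-control probes whose gene name in the scanner files is one of the 9. These 9 of 29411 gene names had 13 of the 40628 probes and 14 of the 43803 non-control spots on each array. Acaca had 4 probes and Fasn had 2, and every other gene had 1 probe. A gene is described by its probe of highest mean level over all arrays unless another probe is named. A further probe carries the same RefSeq accession as Me1 under the older symbol Mod1. It lies outside the choice by name and is given beside Me1.

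In lipogenesis, ATP citrate lyase (Acly) splits cytosolic citrate into acetyl-CoA, acetyl-CoA carboxylase 1 (Acaca) turns acetyl-CoA into malonyl-CoA, and fatty acid synthase (Fasn) builds palmitate from both. Elovl6 lengthens palmitate, Scd1 places the first double bond, and malic enzyme 1 (Me1) supplies NADPH for the reductions. Thrsp (Spot 14) is a small protein of lipogenic tissues that accompanies fatty acid synthesis, and the transcription factors SREBP-1 (gene Srebf1) and ChREBP (gene Mlxipl) respond to insulin and to glucose metabolites. In fat, adipocytes are the main cells that run this pathway.

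The study followed mouse obesity on a fat-rich diet, with transcript levels read from 38 single-colour Agilent arrays. All mice were C57BL/6J, divided at weaning, at the age of 3 to 4 weeks. LFC mice (10 arrays) ate a low fat diet with 10% of calories from fat, HFC mice (10 arrays) ate a sucrose-rich high fat diet with 60% of calories from fat, and HF5, HF20 and HF75 mice (6 arrays each) received 5, 20 or 75 µg of KAL-1, an aqueous botanical formulation, on top of the high fat diet. The sample was the stromal vascular cells of epididymal fat, which the labels call infiltrating macrophages. Each diet had a single array at a time point. LFC and HFC were sampled on days 6, 10 and 14 (written D6, D10 and D14) and in weeks 0, 3, 6, 9, 12, 15 and 18 (written W0 to W18), and the doses from W3 on. Per the labels, 5 animals per group were taken at each interval, and whether an array holds 1 animal or a pool is not given in the sources used here. P-values over time points therefore measure the spread between these arrays, which mixes animals, times and technical error. The paper counts weeks from day 14, so D14 and W0 fall on the same elapsed day. They were kept here as separate time points.

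The promoter windows below are those of Fasn, Acly and Thrsp, which were lower in HFC over the time points, and of Mlxipl, which stood apart at W6. Each is the 250 bases before a start site, 5′ to 3′ on the gene's strand, from RefSeq on build GRCm38.p6. Capitals mark, on either strand, the E box core CACGTG, the NF-Y box CCAAT, the GC box GGGCGG and the sterol element sequence TCACNCCAC. RefSeq windows were found for 8 of the 9 genes, Scd1 being the exception. Windows of Acaca, Elovl6, Srebf1 and Me1 are not printed, although these genes were also lower in HFC.
Fasn (chr11:120824548-120824797, minus strand): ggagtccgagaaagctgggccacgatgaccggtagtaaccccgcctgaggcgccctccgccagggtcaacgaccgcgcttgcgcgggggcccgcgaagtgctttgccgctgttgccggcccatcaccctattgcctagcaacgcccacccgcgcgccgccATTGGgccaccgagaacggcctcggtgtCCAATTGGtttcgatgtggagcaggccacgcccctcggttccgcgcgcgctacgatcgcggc
Acly (chr11:100528001-100528250, minus strand): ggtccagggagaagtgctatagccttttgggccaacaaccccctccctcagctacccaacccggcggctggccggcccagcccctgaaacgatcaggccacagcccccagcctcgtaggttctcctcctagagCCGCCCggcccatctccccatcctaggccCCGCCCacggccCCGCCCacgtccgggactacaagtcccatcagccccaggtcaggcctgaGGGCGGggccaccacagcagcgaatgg
Thrsp (chr7:97417551-97417800, minus strand): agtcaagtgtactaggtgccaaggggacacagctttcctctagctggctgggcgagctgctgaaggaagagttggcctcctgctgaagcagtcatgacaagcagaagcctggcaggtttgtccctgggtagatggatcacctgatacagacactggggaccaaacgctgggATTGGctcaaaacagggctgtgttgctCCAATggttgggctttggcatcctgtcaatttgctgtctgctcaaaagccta
Mlxipl (chr5:135089640-135089889, plus strand, 1 of 2 windows): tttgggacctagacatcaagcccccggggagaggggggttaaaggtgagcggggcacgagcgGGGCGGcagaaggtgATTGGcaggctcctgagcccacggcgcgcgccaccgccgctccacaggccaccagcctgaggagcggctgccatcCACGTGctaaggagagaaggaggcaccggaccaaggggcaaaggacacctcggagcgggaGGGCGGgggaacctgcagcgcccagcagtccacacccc
The CCAAT box occurred 3 times in the Fasn window, 2 times in that of Thrsp and 1 time in that of Mlxipl. A pair of the Fasn boxes lie back to back and share bases. The GC box occurred 4 times before Acly and 2 times before Mlxipl, and the E box core 1 time before Mlxipl. Over all 12 windows of the 8 genes, CCAAT was found in 6 and GGGCGG in 5, where 33.8% and 32.7% of 32851 windows of all genes hold them. CACGTG was found in 1 window (6.02% of all windows), and the sterol element sequence in 1 (1.05% of all windows), in the other window of Mlxipl. The windows of Acaca and Elovl6 held none of these sequences. These matches describe the sequence only.

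The level used throughout is log2 of the processed signal minus the log2 75th percentile of the array, so that 0 is the 75th percentile of the array. The 75th percentile itself ran from 25.8 to 1983 scanner units, and was higher in HFC than in LFC at 9 of the 10 time points. All but 1 of the 342 member values (9 genes on 38 arrays) were well above background. The exception was Acaca on the HF75 array of W3. Saturated spots, whose value is only a lower bound and entered the fits as measured, made up 20 of the 342, and 17 of these lay on 4 arrays, both control arrays of W9 and the LFC and HF75 arrays of W12. The sign of a difference was read only where the lower of its spots was not saturated. Those 4 arrays stood apart from their label as well. The mean level of 9 white adipocyte markers (Adipoq, Lep, Plin1, Cidec, Cfd, Retn, Fabp4, Lipe and Pnpla2) was 4.77 to 5.14 on them and -0.66 to 3.85 on the other 34. On each of these 4 arrays 7 of the 9 adipocyte markers were saturated, so their means there are lower bounds. The macrophage list had at least 7 of its 8 genes well above background on every array. Adipoq was well above background on all 38 arrays, although the stromal vascular fraction is meant to leave adipocytes behind. In such bulk samples, fewer cells of a type and less RNA per cell cannot be told apart.

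All 9 genes were lower in HFC than in LFC over the 10 time points, by a median of 1.04 on the log2 scale, written as HFC minus LFC of -1.04 (n = 9 genes), while the median over all 31208 probes tested was 0.01. Of the 9 genes, 6 passed an unadjusted p of 0.05 in the lower direction, where 4.50% of all probes did so. None of the 9 passed after Benjamini-Hochberg adjustment in limma, and neither did any other probe (0%), with 2825 probes past the unadjusted threshold in either direction. The smallest adjusted p of a member was 0.547, which was also the smallest of all probes.

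Along the chain from citrate to palmitate, Acly levels in LFC ran from -0.29 at W18 through a median of 1.56 to 4.67 at W12 (n = 10 arrays), and those in HFC from -0.37 at D10 through 0.44 to 2.08 at W9. The ranges overlapped, with HFC below LFC at D6 to W6 and W12 and above it at W9, W15 and W18. The limma estimate for Acly was -1.08 ± 0.47 (SE, n = 10 time points, unadjusted p = 0.0398), and -0.73 without W12 (p = 0.0842). Acaca levels ran from -2.10 through -1.07 to 3.88 in LFC and from -2.85 through -2.25 to 1.41 in HFC. On this probe Acaca, the rate-setting step, was lower in HFC at 10 of 10 time points, with an estimate of -1.36 ± 0.55 (p = 0.0306). Without W12 the Acaca estimate was -0.77, since that time point alone gave -6.73. Of the other Acaca probes, the first pair gave -1.52 and -1.02 and the fourth gave -0.37 (p = 0.255), the spots of these 3 on HFC W12 having been left out as outliers. The probe at -1.52 was higher in HFC at W6, and that at -0.37 was higher at W0, W3 (1.25) and W6. Fasn levels ran from 4.43 through 5.47 to 7.66 in LFC and from 3.78 through 5.06 to 5.64 in HFC, where 3 arrays of each diet were saturated (in HFC those of D14, W0 and W9). Of the 7 time points at which saturation left the sign readable, HFC was below LFC at 6, W15 being the exception, and the estimate was -0.95 ± 0.24 (p = 0.00242). The second Fasn probe, which was saturated on no array, gave -1.23 ± 0.28 (p = 0.00117), with its outlier spot on HFC W12 left out.

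Of the enzymes that finish the fatty acid, Scd1 levels ran from 2.83 through 4.47 to 5.64 in LFC and from 2.02 through 2.84 to 5.39 in HFC. Of its 9 time points with a readable sign, the HFC array lay below the LFC array at 8, W6 being the exception. The Scd1 estimate was -1.25 ± 0.30 (p = 0.00142), a 2.38-fold difference. Elovl6 ran from -0.55 through 1.51 to 5.27 in LFC and from -0.52 through 0.62 to 1.90 in HFC. Elovl6 was higher in HFC at D10, W0 and W15, and its estimate of -1.02 ± 0.52 did not pass even the unadjusted threshold (p = 0.0757). Without W12 it was -0.52.

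The NADPH source Me1 ran from 0.87 through 3.07 to 5.55 in LFC and from 0.69 through 2.18 to 5.29 in HFC, with an estimate of -1.04 ± 0.39 (p = 0.0202) and a value lower in HFC at 7 of the 9 time points with a readable sign. The Mod1 probe of the same transcript gave -1.28 ± 0.47 (p = 0.0188). Thrsp had the largest estimate of the 9. Its levels ran from 1.31 through 2.57 to 5.44 in LFC and from 0.51 through 1.44 to 5.36 in HFC. HFC was below LFC at each of the 9 time points with a readable sign, all but W9, and the estimate was -1.61 ± 0.40 (p = 0.00193), a 3.05-fold difference.

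Neither transcription factor gene passed the unadjusted threshold. Srebf1 levels ran from 3.20 through 4.20 to 5.20 in LFC and from 3.04 through 3.81 to 4.77 in HFC, and the estimate was -0.33 ± 0.26 (p = 0.225). Mlxipl ran from -0.99 through 0.38 to 3.48 in LFC and from -4.12 through 0.13 to 2.005 in HFC. Its estimate of -1.02 ± 0.54 (p = 0.0844) rested on W6 and W12, which gave -4.19 and -4.72, while the other 8 time points gave values between -0.87 and 1.14. Without W12 the values were -0.13 for Srebf1 and -0.61 for Mlxipl.

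**Figure D1:**
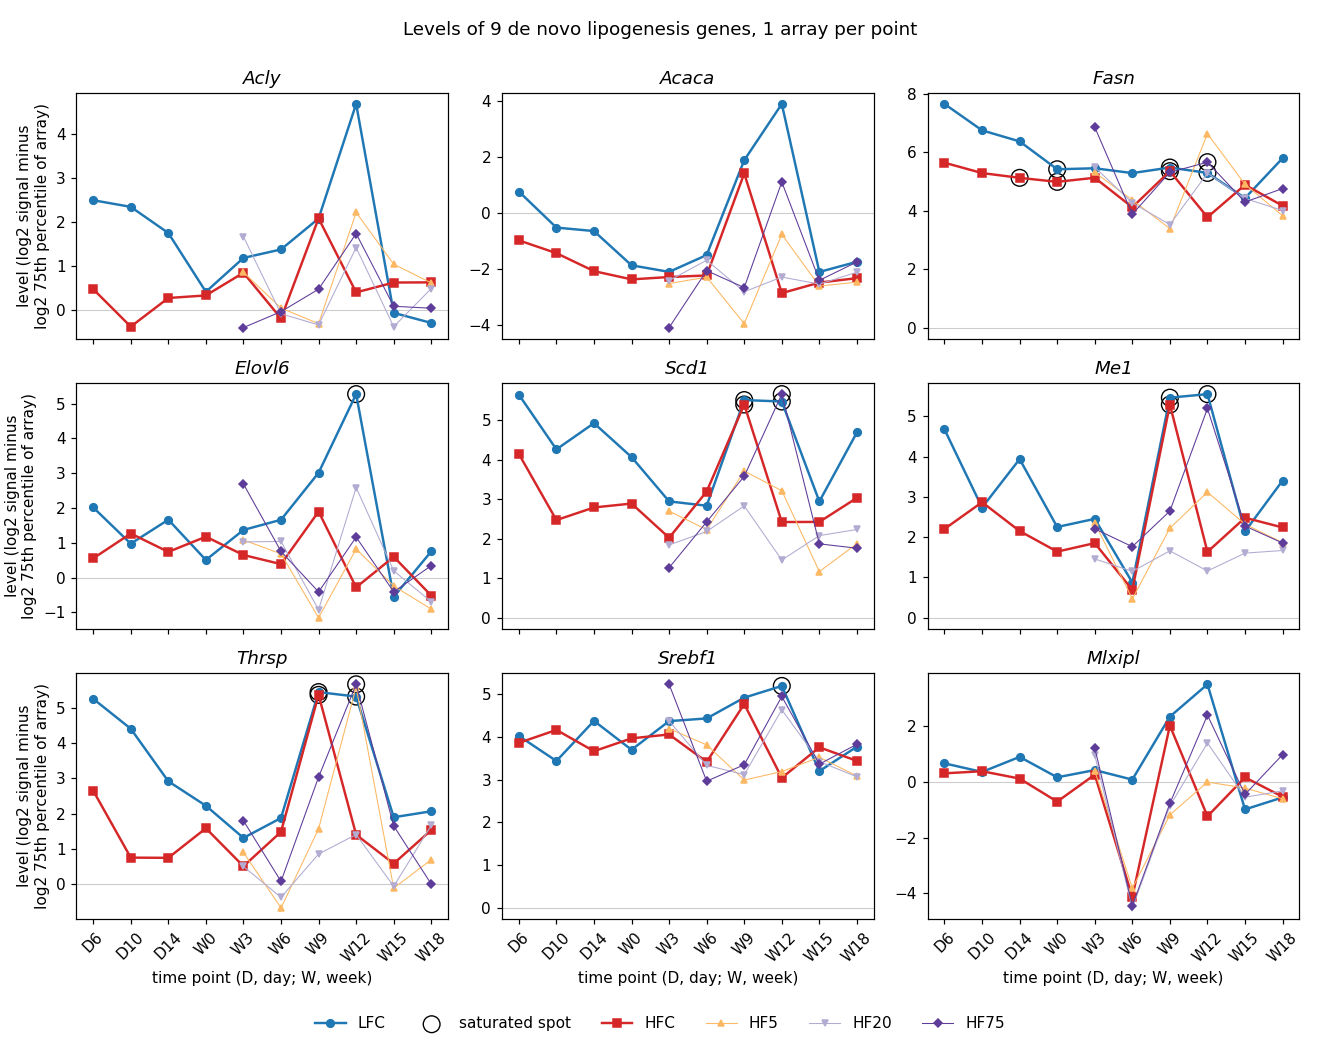
Level of each gene (log2 signal minus the log2 75th percentile of the array) against time point, 1 array per point, for LFC, HFC, HF5, HF20 and HF75, with saturated spots circled. LFC lies above HFC at most time points, and Mlxipl lies near -4 in all 4 high fat diets at W6. The highest level of a gene over all arrays falls at W12, except for Fasn (LFC at D6) and Srebf1 (HF75 at W3).

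**Figure D2:**
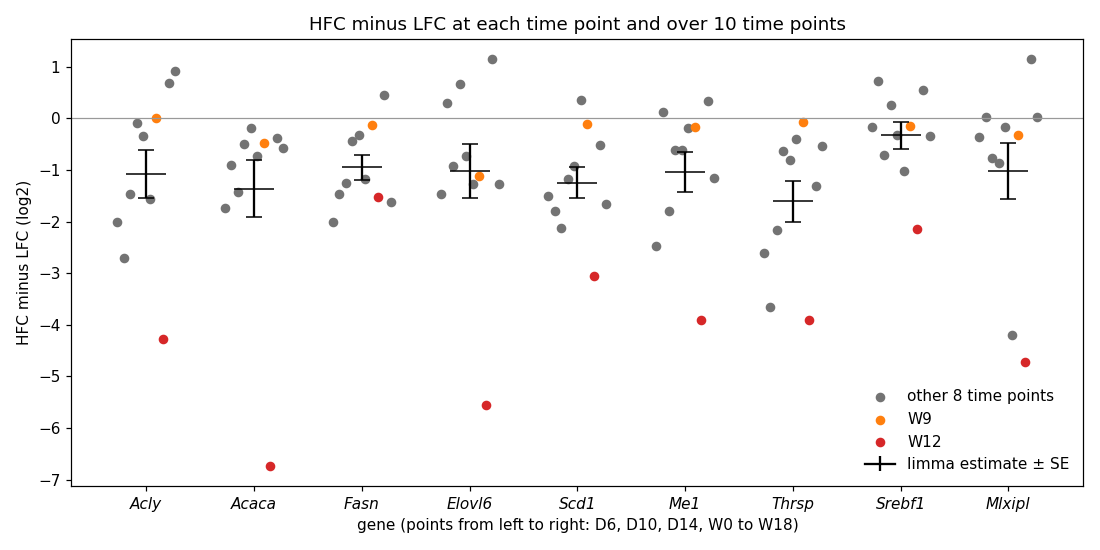
HFC minus LFC on the log2 scale for each gene, as 1 point per time point and as the limma estimate with its SE (n = 10 time points). The lowest point of 8 of the 9 genes is W12, and the W9 points of Fasn, Scd1, Me1 and Thrsp compare saturated spots, as does that of Fasn at W0.

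Of the 90 differences (9 genes at 10 time points), saturation left the sign of 84 readable, and 68 of these 84 were below 0. With 1 array per diet at a time point these differences have no replicate check, apart from D14 and W0, which fall on the same elapsed day. The median over the readable members was -1.45 at D14 and -0.56 at W0. Members at least 2-fold lower in HFC numbered 7 of 9 at D6 (12.5% of all probes measured there), 4 at D10 (23.7%), 5 of 8 readable at D14 (9.56%), 1 of 8 readable at W0 (5.43%) and 0 at W3 (9.46%). They numbered 5 at W6 (13.2%), 1 of 5 readable at W9 (6.96%), 9 at W12 (14.6%), 1 at W15 (8.89%) and 4 at W18 (13.1%). Members at least 2-fold higher numbered 2 in all, both at W15, and these were Elovl6 (1.15) and Mlxipl (1.14).

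At D6 all 9 genes were lower in HFC, from -2.60 for Thrsp to -0.16 for Srebf1. At D14 the 8 readable genes were again all lower, from -2.17 for Thrsp to -0.71 for Srebf1. At D10 Thrsp was 4.40 in LFC and 0.75 in HFC, a 12.6-fold difference, while Srebf1, Elovl6, Me1 and Mlxipl were above 0. The LFC arrays of D6 and D10 also carried Ucp1, the brown adipocyte uncoupler, at 3.83 and 5.11, and Ucp1 was otherwise above 0 on the HF5 array of W12 alone (6.93). On both of these LFC arrays the mesothelial mean was -5.32 and -5.52 (2.85 and 1.74 in HFC) and the epididymal mean -5.84 and -6.26 (1.102 and 3.52 in HFC). The endothelial mean at D10 was 4.46 in LFC and 0.63 in HFC. The part of these in the values of D6 and D10 was not tested. Without both days the median over the members was -1.13, with 4 genes lower past the unadjusted threshold (0.872% of all probes).

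Within week 9, both control arrays were rich in adipocyte transcripts, with adipocyte marker means of 5.14 in LFC and 5.10 in HFC. Of the 9 markers, 7 were saturated on each array, so these lower bounds do not show equal adipocyte content. Fasn, Scd1, Me1 and Thrsp were saturated on both arrays, so that no difference can be read from them. The other 5 had a median difference of -0.32, with 4 below 0. Acly was 2.07 in LFC and 2.08 in HFC. Acaca was 1.88 and 1.41, Srebf1 was 4.92 and 4.77, and Mlxipl was 2.32 and 2.005 in the same order. Elovl6 was 3.01 in LFC and 1.90 in HFC and was the only one of the 5 at least 2-fold apart (2.17-fold). The probes that were not saturated gave 3.93 in LFC against 3.07 in HFC for Fasn and 4.23 against 3.36 for Mod1. Under quantile normalization 3 of the 5 were below 0 and 0 were 2-fold lower, and under normexp background correction 5 were below 0, where the median of all probes was 0.43.

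Week 12 was the other extreme, as its LFC array was rich in adipocyte transcripts (marker mean 4.77) and its HFC array was not (1.92). All 9 members were at least 2-fold lower in HFC, with a median of -3.92, although the median of all probes at W12 was 0.51 higher in HFC. Under quantile normalization that median was -0.34 and the members' median was -4.36. Acaca was 3.88 in LFC and -2.85 in HFC, a 106-fold difference. Acly differed 19.2-fold and Mlxipl 26.4-fold. LFC spots of the other 6 were saturated, and the difference was at least 46.9-fold for Elovl6, at least 15.1-fold for Me1 and Thrsp, at least 8.27-fold for Scd1, at least 4.44-fold for Srebf1 and at least 2.86-fold for Fasn.

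The adipocyte markers and the members both had their highest means on the 4 adipocyte-rich arrays, but they parted on others. On HF20 at W12 the marker mean was the lowest of all arrays (-0.66), while the members' mean (1.90) was the highest of HF20. The marker mean ran from 0.42 to 5.14 in LFC, 1.28 to 5.10 in HFC, 0.33 to 3.59 in HF5, -0.66 to 2.37 in HF20 and 0.79 to 5.14 in HF75. It was lower in HFC at 8 of 10 time points, by -0.62 ± 1.13 (SD, n = 10). Of the 9 markers, 3 were lower at an unadjusted p of 0.05 in limma (4.50% of all probes). The exceptions were W3 and W6, at which the adipocyte mean was higher in HFC by 0.18 and 1.40 while the members' mean was lower, at -0.48 and -1.13. The brown adipocyte and endothelial means were each lower in HFC at 8 of 10 time points, by -1.33 and -0.72. The macrophage, mesothelial and epididymal means were higher at 8, 7 and 6 of 10, by 0.53, 1.84 and 2.17. Apart from the adipocyte mean, their part in the members' values was not tested. With the adipocyte mean as a covariate, the median over the members was -0.60 and 3 of the 9 were lower past the unadjusted threshold (1.94% of all probes). These were Scd1 at -0.72 ± 0.16 (p = 0.000885), Thrsp at -1.03 ± 0.33 (p = 0.0103) and Fasn at -0.74 ± 0.27 (p = 0.0181). The same fit gave -0.55 for Acaca and -0.60 for Acly. Saturated markers entered this covariate as measured. Without W9 and W12 the median was -0.81 and 5 of the 9 passed (6.42% of all probes), with Acaca at -0.81 ± 0.20 (p = 0.00273).

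**Figure D3:**
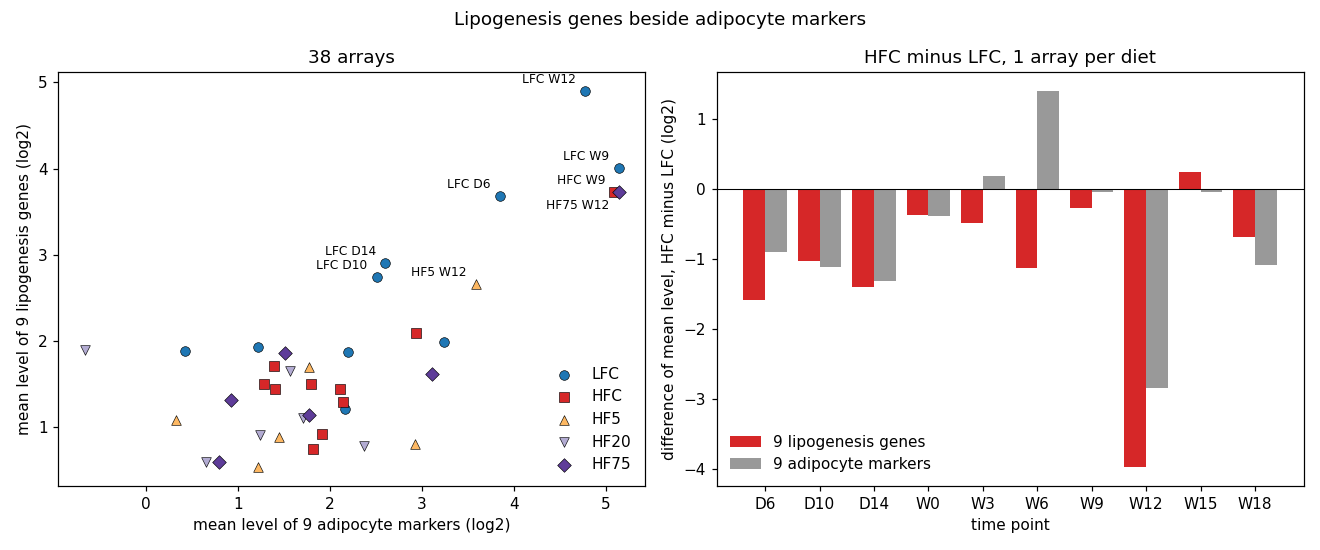
Left, mean level of the 9 lipogenesis genes against mean level of the 9 adipocyte markers on 38 arrays, coloured by diet. Right, HFC minus LFC of both means at each time point (log2, 1 array per diet); the bars of the 2 lists point in opposite directions at W3, W6 and W15.

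The difference between the diets did not pass a test of change with time. The slope of HFC minus LFC ran from -0.06 log2 per week for Elovl6 to 0.08 for Acly, with SEs of 0.04 to 0.09, and 4 of the 9 were above 0. The smallest p was 0.274, where 4.36% of all probes passed the unadjusted threshold, and 0 of the 31208 probes passed after adjustment.

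Mlxipl at W6 stood apart from its other values. Its level was 0.07 in LFC, -4.12 in HFC, -3.81 in HF5, -4.52 in HF20 and -4.44 in HF75, and its spot was well above background on all 5 arrays. All 4 high fat arrays lay far below the LFC array. On the other 33 arrays no Mlxipl level was below -1.24. Me1, Scd1 and Srebf1 at W6 were 0.69, 3.19 and 3.42 in HFC against 0.87, 2.83 and 4.44 in LFC. Acly (2.95-fold), Elovl6 (2.42-fold), Fasn (2.25-fold) and Srebf1 (2.02-fold) were also at least 2-fold lower in HFC at W6, against 18.3-fold for Mlxipl. Acaca (1.65-fold) and Thrsp (1.31-fold) were lower by less. On the same W6 arrays the mean of 5 mesothelial markers was 0.43 in LFC, -5.35 in HFC, -4.41 in HF5, -4.99 in HF20 and -2.49 in HF75, and its part in the Mlxipl values was not tested. A single probe measures Mlxipl, so no second probe bears on it.

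Over W3 to W18, where all 5 diets had 6 arrays, LFC had the highest mean of every one of the 9 genes. Scd1, for example, had means of 4.06 ± 1.30 in LFC, 3.08 ± 1.21 in HFC, 2.76 ± 1.62 in HF75, 2.48 ± 0.92 in HF5 and 2.10 ± 0.45 in HF20 (SD, n = 6 arrays each). For Thrsp the order was LFC (2.98 ± 1.87), HF75 (2.04 ± 2.11), HFC (1.81 ± 1.80), HF5 (1.33 ± 2.23) and HF20 (0.67 ± 0.80). The 4 adipocyte-rich arrays lay unevenly among the diets. LFC had those of W9 and W12, HFC that of W9 and HF75 that of W12, while HF5 and HF20 had none. Scd1 and Thrsp were saturated on all 4, and these values entered the means as measured. The part of these arrays in the orders was not tested. In all 36 steps between neighbours in these orders (4 for each of the 9 genes), the gap was smaller than the larger SD of the pair. These SDs include the changes from week to week, which the fits with the time point as a block remove. They therefore do not measure how precisely the order is known.

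Against HFC, the mean of the 3 doses differed by a median of -0.22 over the members, with 8 of 9 below 0, while the median of all 33787 probes was 0.01. None of the 9 passed the unadjusted threshold (1.73% of all probes did), and no probe passed after adjustment. The lowest estimate was Scd1 at -0.63 ± 0.41 (SE, p = 0.138) and the highest was Fasn at 0.22 ± 0.35. For HF5 minus HFC, HF20 minus HFC and HF75 minus HFC the members' medians were -0.33, -0.27 and 0.23, with 0 of 9 past the unadjusted threshold each time, where 4.72%, 1.54% and 1.96% of all probes passed. The sign of each median turned when a week was left out, to 0.24 for HF5 and 0.22 for HF20 without W9 and to -0.36 for HF75 without W12. The smallest p among these was for Scd1 in HF20, at -0.98 ± 0.50 (p = 0.0649), lower than HFC at 6 of 6 weeks. Thrsp in HF20 gave -1.15 ± 0.71 (p = 0.118). The second Fasn probe gave -1.22 ± 0.66 for all doses together, where the first gave a value above 0. These rest on unlike arrays, as the HFC spot of the second at W12 was left out as an outlier. Without W12 the first gave -0.16.

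W9 and W12 carried most of the spread in these contrasts, which share the HFC arrays. At W9, when the HFC array was rich in adipocyte transcripts and the dose arrays were not (marker means of 2.37 to 3.11), all 9 members were lower than HFC in each dose. The medians were -3.05 in HF5, -2.82 in HF20 and -2.31 in HF75. The dose arrays of W9 were scanned on another day than its HFC array, so dose and scan day cannot be told apart there. With the scan day as a block, the members' median for the mean of the doses was 0.30. Fasn, Scd1, Me1 and Thrsp were saturated on the HFC array of W9, and Fasn, Scd1 and Thrsp on the HF75 array of W12, so that their differences there are bounds. At W12 all 9 were higher than HFC in HF5 (median 1.48) and in HF75 (3.23), and 7 of 9 were higher in HF20 (1.01). The HF5 array of W12 had the lowest 75th percentile of all arrays (25.8), 40.1% of its probes well above background, a brown adipocyte mean of 4.63 and 0 of 5 mesothelial markers well above background. The part of these in its values was not tested. The adipocyte marker means at W12 were 3.59 in HF5, 5.14 in HF75 and -0.66 in HF20. Without W9 the estimates of 8 of the 9 genes for the mean of the doses were above 0, Scd1 at -0.36 being the exception, and without W12 all 9 were below 0. At the other 4 weeks the median over the members lay between -0.54 and 0.96 in each dose.

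**Figure D4:**
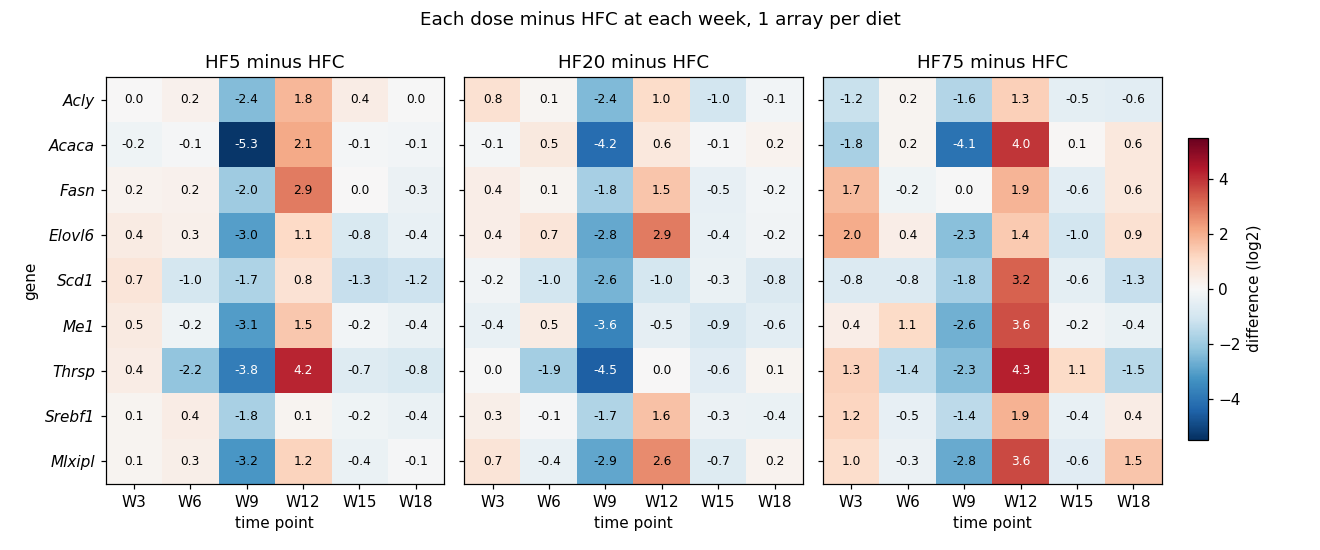
Each dose minus HFC at each week for each gene (log2, 1 array per diet), from blue (lower than HFC) to red (higher). The W9 columns are blue in all 3 doses, apart from Fasn in HF75 near 0 (-0.04), and the W12 columns are red throughout in HF5 and HF75.

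Among themselves the members varied together to differing degrees, as described by Pearson correlations over 38 arrays that share a scaling and the adipocyte-rich arrays. The 36 pairs had a median of 0.57, from 0.34 for Scd1 and Srebf1 to 0.84 for Elovl6 and Srebf1. Over the 34 arrays left without the 4 adipocyte-rich ones, the median was 0.46 and Elovl6 with Srebf1 stood at 0.83, but Scd1 with Srebf1 at -0.07. Of 18357 other genes compared, the 5 whose level was most like the members' mean were Brp44l (0.93), Pcx (0.92), Acss2 (0.91), Glrx5 (0.90) and Aacs (0.90). Brp44l is the older symbol of Mpc1, a subunit of the mitochondrial pyruvate carrier, and Pcx is pyruvate carboxylase. Acss2 and Aacs make acetyl-CoA and acetoacetyl-CoA in the cytosol from acetate and acetoacetate, and Glrx5 serves in mitochondrial iron-sulphur cluster assembly. All 5 had their highest level on LFC W12. On the 34 other arrays the 5 values were 0.83, 0.84, 0.81, 0.76 and 0.75 in that order.

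Other genes of the pathway and its surroundings were set beside the members over the 10 time points, and none passed the adjusted threshold. All counts past the unadjusted threshold here are in the lower direction, where 4.50% of all probes passed. Of 17 other genes of fatty acid synthesis, elongation, desaturation and activation, 14 were bright enough to be tested, 10 of these were lower in HFC and 2 passed the unadjusted threshold, Elovl5 (-0.48 ± 0.20) and Acss2 (-1.39 ± 0.62), with a median of -0.47. Of 8 genes of NADPH supply, 5 were lower (median -0.21) and 2 passed the unadjusted threshold, Taldo1 (-0.40 ± 0.15) and Tkt (-0.59 ± 0.24). Of 8 genes of glycerolipid synthesis, 7 were lower (median -0.65) and 3 passed the unadjusted threshold, led by Gpd1 (-1.09 ± 0.38) and Mogat1 (-1.10 ± 0.46).

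The genes that process SREBP or pair with SREBP, ChREBP and LXR showed a median of -0.05, with 11 of 13 lower and 2 higher. In the lower direction 1 passed the unadjusted threshold, where 4.50% of all probes did so. That gene was Rxra, a nuclear receptor partner, at -0.54 ± 0.15 (p = 0.00372), and next came Srebf2 at 0.35 ± 0.22 (p = 0.148). The 12 genes of cholesterol synthesis and uptake, which SREBP-2 drives, had a median of 0.03, with 7 higher and 5 lower. Of these 12, 1 passed the unadjusted threshold, in the lower direction, and the 2 of smallest p were Hmgcs1 (-0.52 ± 0.23) and Dhcr7 (-0.43 ± 0.26, p = 0.131). Of 9 genes of fatty acid oxidation, the opposite pathway, 8 were lower (median -0.48) and 3 passed the unadjusted threshold in that direction. Cpt1b (-0.93 ± 0.34) and Hadhb (-0.62 ± 0.25) had the smallest p.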

How the data were processed

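Per the file headers, the authors scanned single-colour Agilent arrays and Feature Extraction 10.5.1.1 wrote the background-subtracted processed signal used here, a linear intensity per spot (the processing notes name version 9.1). A deposited table of the authors' log ratios of each array to the LFC array of its time point was not used. No unmatched columns of other samples were found. Control spots and spots marked as outliers were left out, spots of a probe were averaged, and log2 values minus the log2 75th percentile of each array were computed here from the deposited signals. Arrays were grouped by the diet and time in the labels. Two-sided tests in limma 3.58.1 in R 4.3.3 compared HFC with LFC over 20 arrays, and doses with HFC over 30 arrays, with the time point as a block and Benjamini-Hochberg adjustment at 0.05. Probes had to be well above background on at least 50% of the arrays of either diet. The slope used elapsed days, with 14 days added to the weeks. The script was tested on simulated data. The members and lists were chosen with earlier results of these data known. Promoter windows came from RefSeq. A gene was represented by its probe of highest mean level. All members were named, of other lists at most 2 genes of smallest p, and the 5 genes most alike. The number of arrays limits the precision. The sign of a difference was taken as readable unless the lower spot was saturated. Alternatives were other scalings, background corrections, filters, blocks, covariates, left-out arrays and the methods' t-test. Figures were drawn with matplotlib 3.10.9. For W15 and W18 of HF5 and HF20 (4 arrays) the diet label names another dose than the source name, which was followed.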

Additional observations from a re-analysis of the deposited data

Results flagged for a closer look

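Of 45 groups tested (9 genes in 5 diets), 7 had an extreme array whose gap to its nearest neighbour was wide for the range of the group. Chance alone gives such a gap in about 1 in 20 groups, or 2.25 of 45, and genes on 1 array are not independent. In HFC, the array of W9 was highest for Me1 (5.29, next 2.87), Thrsp (5.36, next 2.65), Acly (2.08, next 0.85) and Acaca (1.41, next -0.97), those of Me1 and Thrsp being saturated. At W12, Me1 in HF75 was 5.20 (next 2.65) and Thrsp in HF5 was 5.58 (next 1.57). The HFC array of W6 was lowest for Mlxipl (-4.12, next -1.24).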

How the results depend on the processing

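All 9 members stayed lower in HFC than in LFC under each of 23 alternatives (207 of 207 values), and no alternative gave an adjusted p under 0.201. The 207 values are not separate checks. Other filters change only which probes are fitted, so the members' differences could not move. The fit with no replicate block and the methods' t-test also return the main differences, as each time point has 1 array per diet. Fits without 1 time point share most of their arrays. With the slide as a block and with the adipocyte mean as a covariate, 3 genes passed the unadjusted threshold in place of 6 (4.43% and 1.94% of all probes lower). Leaving out 1 time point gave counts of 4 to 8 and medians of -1.26 to -0.73. The replicate block here is the time point, since the labels pair the diets by time; with no replicate block 4 genes passed (0.984% of all probes lower), as with the methods' t-test (1.29%), and the median was -1.04. For the slope, 1 gene passed without W9 and W12, and 0 to 1 when 1 time point was left out, the 1 being without W12. The share of all probes was not computed for these slope counts or for the counts of 4 to 8, so they have no background to be read against. At week 9, quantile normalization left 5 genes lower, of which 3 had a readable sign, and 0 at least 2-fold lower.

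Of the doses, 1 gene passed for the mean of the doses without W9 and W12 and without the array HF75 W12. For HF20, 1 passed with the dose from the diet label and without HF75 W12. Leaving out 1 week gave 0 to 2 for the mean of the doses, HF5 and HF20 and 0 to 1 for HF75, the highest counts being without W12. The share of all probes was not computed for these dose counts either. The sign of the mean of the doses minus HFC turned for 39 member values, and the cause was not tested. These were Fasn (-0.00345) and Mlxipl (0.0777) under quantile normalization; Acaca (0.0849), Fasn (-0.19) and Elovl6 (0.0708) under normexp; and Fasn (-0.59) when the mean of all probes was used. With the adipocyte mean as a covariate they were Acaca 0.14, Elovl6 0.13, Srebf1 0.0331, Mlxipl 0.14, Me1 0.16 and Thrsp 0.089. With array brightness as a covariate they were Elovl6 0.0342, Srebf1 0.0125 and Mlxipl 0.16, and without W9 and W12 Elovl6 0.18, Srebf1 0.0162 and Mlxipl 0.11. Leaving out 1 week moved Acaca from -0.97 to 0.38, Fasn from -0.16 to 0.52, Acly from -0.55 to 0.16, Elovl6 from -0.40 to 0.51, Srebf1 from -0.31 to 0.26, Mlxipl from -0.50 to 0.59, Me1 from -0.68 to 0.25 and Thrsp from -1.13 to 0.15. Further alternatives were chosen after seeing the data. Without the array HF5 W12, Elovl6 was 0.00299 and Mlxipl 0.0476; without HF75 W12, Elovl6 was 0.0279. With the scan day as a block the values were Acaca 0.39, Elovl6 0.38, Srebf1 0.28, Mlxipl 0.39, Me1 0.30 and Thrsp 0.10, and the second Fasn probe gave -1.22.

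A difference in which the brighter spot alone was saturated is a lower bound, and no difference can be read where both spots, or the dimmer alone, were saturated. With 1 array per diet and time point no difference at a single time point has a replicate, apart from D14 and W0, which fall on the same elapsed day.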
